A study of Mus musculus with 2 samples.

Results

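Pleiotrophin (Ptn), midkine (Mdk) and the cell-surface and nuclear proteins that bind them were examined in cells from the mouse endometrium on day 3 of pregnancy. The set held 7 of the 19070 genes in the deposited matrices: the ligands Ptn and Mdk, the heparan sulfate proteoglycans syndecan 1 (Sdc1) and syndecan 4 (Sdc4), the receptor-type protein tyrosine phosphatase Ptprz1, the receptor tyrosine kinase Alk, and nucleolin (Ncl). The genes were listed by symbol, and their UMIs (unique molecular identifiers, each standing for 1 captured molecule) were summed by library and by cell class. The set was drawn up after Ptn had been seen to differ in opposite directions in stromal and epithelial cells of these same libraries. The members were thus selected on the Ptn UMI sums of the 2 classes. That pattern is given as a description and supports nothing.

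The study titled its question as the part stromal Erbb3 plays in shaping uterine gland morphogenesis; Erbb3 encodes a receptor of the ErbB family. It made 1 library from Erbb3 f/f mice, the floxed control, and 1 from Erbb3 d/d mice, described as lacking Erbb3 in the stroma. Both came from endometrium at 9 AM on day 3 of pregnancy, fixed before dissociation and described as read with a probe-based 10x Genomics Flex assay. The labels also name a 10x Next GEM kit, and the 10x kits named were not reconciled here. The Cre driver behind the deletion, the age of the mice, the number of mice behind each library and the probe set were not given in the sources used here. With 1 library per genotype no difference has a replicate check, and genotype and preparation cannot be told apart. The intervals below are 95% intervals that cover counting error only.

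Pleiotrophin and midkine are the members of a small family of secreted, heparin-binding growth factors with roles in neurite growth, vessel growth, and the growth and branching of epithelia. They bind the heparan sulfate chains of syndecans and the chondroitin sulfate chains of Ptprz1, and pleiotrophin binding is known to inactivate the phosphatase of Ptprz1, which raises tyrosine phosphorylation of its substrates. Alk and nucleolin at the cell surface have also been described as receptors, although nucleolin is chiefly a protein of the nucleolus, where ribosomal RNA is made. Both growth factors have been described in the uterus around the time of implantation.

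After cells with fewer than 200 genes or over 10% mitochondrial UMIs were left out, 5503 f/f and 1830 d/d cells remained, with a median of 809 and 764.5 UMIs per cell and 5517795 and 1712695 UMIs in all. The 280 f/f and 295 d/d barcodes left out carried the rest of the 6819591 and 2866862 deposited UMIs. No whole barcode was shared between the libraries, though 158 shared their first 16 bases. A cell was gated to a class when it held at least 2 UMIs of that class's marker list and that list gave at least 2/3 of its UMIs from all 8 marker lists. The epithelial gate held 2073 f/f and 701 d/d cells, the stromal gate 1446 and 322, and no gate took 1756 and 715 cells (31.9% and 39.1%). All 19 epithelial and all 12 stromal markers were detected in their own gate in both libraries. The gates pick cells by these same lists, so this is no check of the class names. The endothelial (102 and 31 cells), myeloid (72 and 27), muscle and pericyte (31 and 20), mesothelial (20 and 11) and lymphoid (3 and 3) gates held under 50 d/d cells. At most their counts are given, with no comparison between the libraries, and the glial gate was empty. The median mitochondrial share was 0.407% in f/f and 0.506% in d/d epithelial cells, but 1.17% and 2.52% in stromal cells, and its part in the stromal differences was not tested.

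The targeted gene could not be checked in the stroma at this depth. Erbb3 gave 14 UMIs from f/f and 2 from d/d stromal cells, 10.3 and 7.28 UMIs per 1000000 UMIs of the class (CPM), a d/d-to-f/f log2 ratio of -0.50 (interval -3.68 to 1.63). In epithelial cells Erbb3 gave 170 and 33 UMIs (81.8 and 50.8 CPM), a log2 ratio of -0.69 (-1.27 to -0.14).

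The bases just before the genes of Ptn and Ptprz1, the ligand and the receptor with the largest differences here, are shown because their motif content can be set beside those differences. Both lie on chromosome 6 of the mouse, and the sequences come from RefSeq on GRCm38.p6. The Ptn stretch is chr6:36810221-36810429 on the minus strand, the part of the 250-base window that lies before the outermost annotated start. The Ptprz1 stretch is chr6:22875252-22875501 on the plus strand. Capitals mark the motif matches described after them.
Ptn: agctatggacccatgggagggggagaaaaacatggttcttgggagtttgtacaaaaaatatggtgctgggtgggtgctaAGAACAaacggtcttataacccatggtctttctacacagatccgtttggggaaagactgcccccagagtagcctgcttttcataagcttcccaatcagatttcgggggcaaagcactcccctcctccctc
Ptprz1: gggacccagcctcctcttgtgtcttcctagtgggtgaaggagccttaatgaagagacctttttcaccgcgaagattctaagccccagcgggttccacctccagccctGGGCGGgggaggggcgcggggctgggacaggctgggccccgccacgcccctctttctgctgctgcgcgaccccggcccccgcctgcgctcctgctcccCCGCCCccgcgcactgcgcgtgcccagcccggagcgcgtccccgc
The 250 bases before each RefSeq start were searched on both strands for an AP-1 site (TGANTCA), an E-box (CANNTG), a GC box (GGGCGG), a steroid receptor half-site (AGAACA) and a TATA box (TATAAA). The Ptn window held 1 match, the half-site AGAACA on the gene's strand 171 bases before the RefSeq start; 16.1% of 32851 promoters of that length held it. The Ptprz1 window held the GC box 143 bases before the start on its own strand and again 45 bases before it on the other strand; 32.7% of promoters held a GC box. E-boxes were in 66.2%, TATA boxes in 12.4% and AP-1 sites in 6.75% of promoters and in neither of these windows. The matches describe letters and not bound sites, and no binding or chromatin data were part of the series.

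Ptn (ENSMUSG00000029838, chr6:36714929-36810220, minus strand, GRCm38) encodes the secreted ligand pleiotrophin. It gave 80 UMIs from f/f and 66 from d/d epithelial cells, which is 38.5 CPM (30.5 to 47.9) and 102 CPM (78.6 to 129). The d/d epithelial level was 2.64-fold that of f/f, a log2 ratio of 1.40 (0.91 to 1.89), and the intervals of the levels did not overlap. In stromal cells Ptn gave 96 UMIs from f/f and 10 from d/d, 70.4 CPM (57.0 to 86.0) and 36.4 CPM (17.5 to 67.0). The stromal log2 ratio was -0.95 (-2.06 to -0.01), an interval that reached almost to 0, and the intervals of the levels overlapped. Its size depended on how stromal cells were defined: it was -0.30 (-1.01 to 0.36) with a looser gate share of 0.5 and -2.47 (-5.54 to -0.56) with classes taken from clusters, where only cluster 0 counted as stromal. In cells of no gate it gave 73 and 52 UMIs (38.5 and 71.9 CPM), a log2 ratio of 0.90. The 102 f/f and 31 d/d endothelial cells gave 8 and 5 Ptn UMIs, 95.4 CPM (41.2 to 188) and 233 CPM (75.7 to 544). Muscle and pericyte cells gave 3 and 3, myeloid cells 2 and 2, mesothelial cells 0 and 1, and lymphoid cells none. Over all cells Ptn gave 262 and 139 UMIs, 47.5 and 81.2 CPM, a log2 ratio of 0.77 (0.47 to 1.08).

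The order of the classes differed between the libraries. Within the f/f library Ptn was lower in epithelial than in stromal cells, with a log2 ratio of epithelium over stroma of -0.87 (-1.32 to -0.43). Within the d/d library it was 2.79-fold higher in epithelial cells, a log2 ratio of 1.48 (0.51 to 2.61). Of the other detected members, Mdk, Sdc1 and Sdc4 had the same order in both libraries, Ncl was level between the classes in d/d, and Ptprz1 had too few d/d UMIs for an order.

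**Figure D1:**
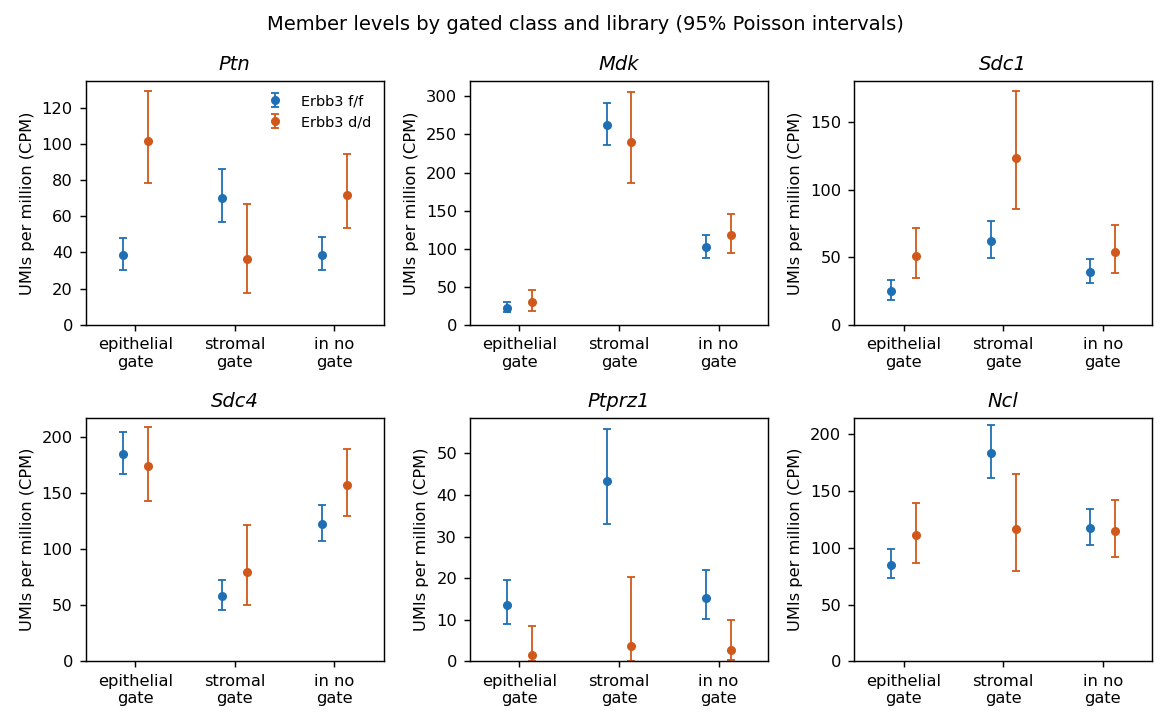
CPM (UMIs per 1000000 of the class total) (vertical axis) for the 6 detected members in the epithelial gate, the stromal gate and cells of no gate, with f/f in blue and d/d in orange and bars for 95% Poisson intervals. Ptn stands at 38.5 and 102 CPM in the epithelial gate and at 70.4 and 36.4 CPM in the stromal gate, and Ptprz1 is lower in d/d in every class shown.

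Few cells carried a Ptn UMI. It was found in 229 of 5503 f/f cells and 124 of 1830 d/d cells, at no more than 4 and 3 UMIs in a cell. With every cell thinned to 500 UMIs, 33 of 2070 f/f epithelial cells (1.59%, 1.10% to 2.23%) and 37 of 701 d/d epithelial cells (5.28%, 3.74% to 7.20%) had one. Without thinning the shares were 3.62% and 8.42%. Thinning left out 3 f/f and no d/d epithelial cells. The thinned stromal shares were 2.79% (1.999% to 3.78%) and 2.48% (1.08% to 4.84%), so by the share of cells the stromal difference was not detectable, while without thinning they were 5.33% and 3.11%. Myeloid cells, taken as a class not known for pleiotrophin, gave 1 of 72 f/f cells (1.39%, 0.0352% to 7.50%) and 1 of 26 d/d cells (3.85%, 0.0973% to 19.6%) at a median of 650 and 640 UMIs, against 855 and 812 in epithelial cells. Neither epithelial share could be told apart from the myeloid share of its library, because the myeloid intervals are wide.

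Ptn was then read in parts of the epithelial gate. Cells with at least 2 UMIs of the cell-cycle list numbered 356 with f/f and 374 with d/d. In them Ptn gave 24 and 45 UMIs, 47.9 and 112 CPM, a log2 ratio of 1.23 (0.48 to 2.01). In the other epithelial cells it gave 56 and 21 UMIs, 35.5 and 84.4 CPM, a log2 ratio of 1.25 (0.45 to 1.995). Ptn was higher in d/d in both, and the difference between these ratios was not tested. Luminal cells marked by Lrp2 and Slc5a11 numbered 881 with f/f and 24 with d/d, and gave 35 Ptn UMIs and 1, a log2 ratio of 0.25 (-5.09 to 2.83) that shows no direction. Gland-marked cells (212 and 18) gave 9 and 2 UMIs, 1.62 (-1.63 to 3.89). Outside the Lrp2 and Slc5a11 cells Ptn gave 45 and 65 UMIs, 42.1 and 104 CPM, a log2 ratio of 1.30 (0.73 to 1.89).

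Among groups of stromal cells the gap was widest in one. In cells marked by Pth1r and Scube1 (414 f/f and 80 d/d) Ptn gave 49 UMIs and 1 UMI, 95.3 and 12.4 CPM, a log2 ratio of -2.94 (-8.28 to -0.40), or -1.50 (-3.41 to -0.07) with 1 marker UMI in place of 2 to define the group. In the other stromal cells it gave 47 and 9 UMIs, 55.3 and 46.4 CPM, a log2 ratio of -0.25 (-1.47 to 0.79), which was not a detectable difference. These 2 intervals overlap, and the difference between the groups was not tested. In stromal cells marked by Col6a4 and Adam12, which overlap the first group, Ptn gave 38 and 6 UMIs, a log2 ratio of -1.32 (-2.85 to -0.06).

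**Figure D2:**
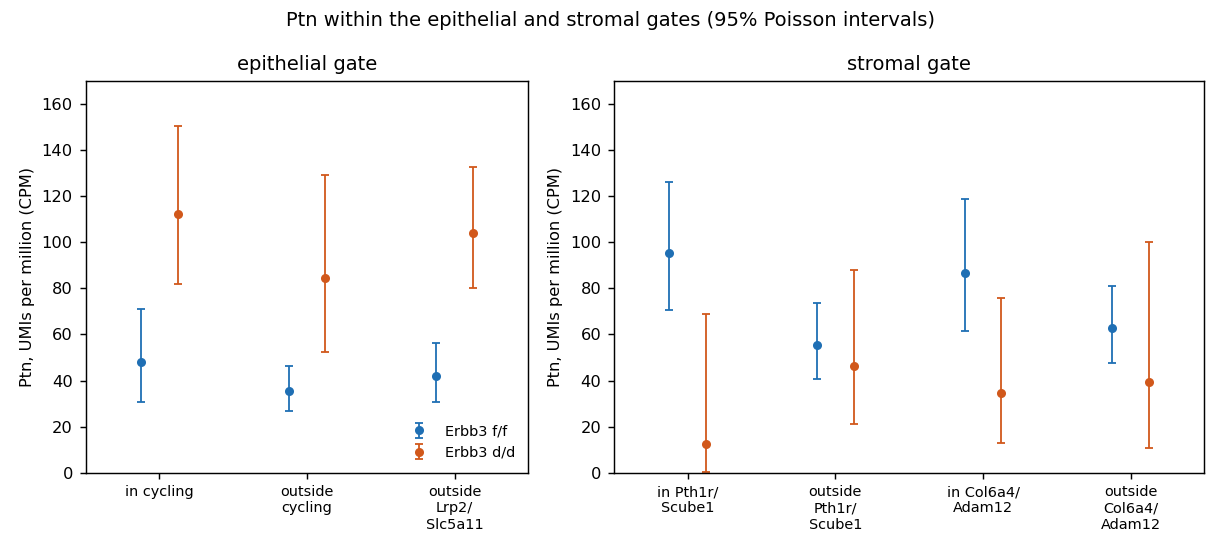
Ptn in CPM (vertical axis) in parts of the epithelial gate (left) and of the stromal gate (right), with f/f in blue, d/d in orange and 95% Poisson intervals. In the epithelial parts the d/d points stand at 84.4 to 112 CPM against 35.5 to 47.9 CPM in f/f, and among stromal parts the widest gap is in Pth1r and Scube1 cells, 95.3 against 12.4 CPM.

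The same UMIs were also summed by unsupervised cluster, which describes where they lay and adds no independent evidence. Of 13 clusters, 9 held at least 50 cells of each library, and Ptn was higher in d/d in 7 of these, with an interval clear of 0 in clusters 4, 6 and 7. In cluster 4, led by the mitotic genes Pif1 and Troap, it stood at 45.1 CPM in f/f and 120 CPM in d/d (24 and 54 UMIs), and in cluster 6, led by the replication genes Rrm2 and Ccne2, at 47.5 and 126 CPM (7 and 27 UMIs). In cluster 0, led by Col7a1 and Pth1r, it stood at 73.0 and 13.2 CPM (69 and 2 UMIs), the widest gap in the other direction. Cluster 5, led by the mesothelial markers Msln and Upk1b, had Ptn higher in d/d, at 27.0 and 56.3 CPM. So did cluster 7, at 35.1 and 98.5 CPM, with Fabp4, Plin4 and Plin1 among its leading genes. Stromal markers gave the most marker UMIs in clusters 5 and 7 but did not reach the class line. Cluster 9, led by the endothelial gene Egfl7, had the highest f/f level at 110 CPM and 125 CPM in d/d. The libraries did not fill the clusters alike: cluster 1, led by Slc5a11, held 36.4% of the f/f and 1.28% of the d/d epithelial gate, while cluster 4 held 11.8% and 37.8%. Ptn counts from cluster 1 could therefore not be compared, with 30 UMIs in 956 f/f cells and none in 10 d/d cells. The stromal gate was filled unevenly too. Cluster 0 held 72.8% of its f/f and 55.6% of its d/d cells, and cluster 5 held 4.77% and 13%. The epithelial and the stromal ratios of all members thus compare differently made-up gates, and the part of this makeup in them was not tested.

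**Figure D3:**
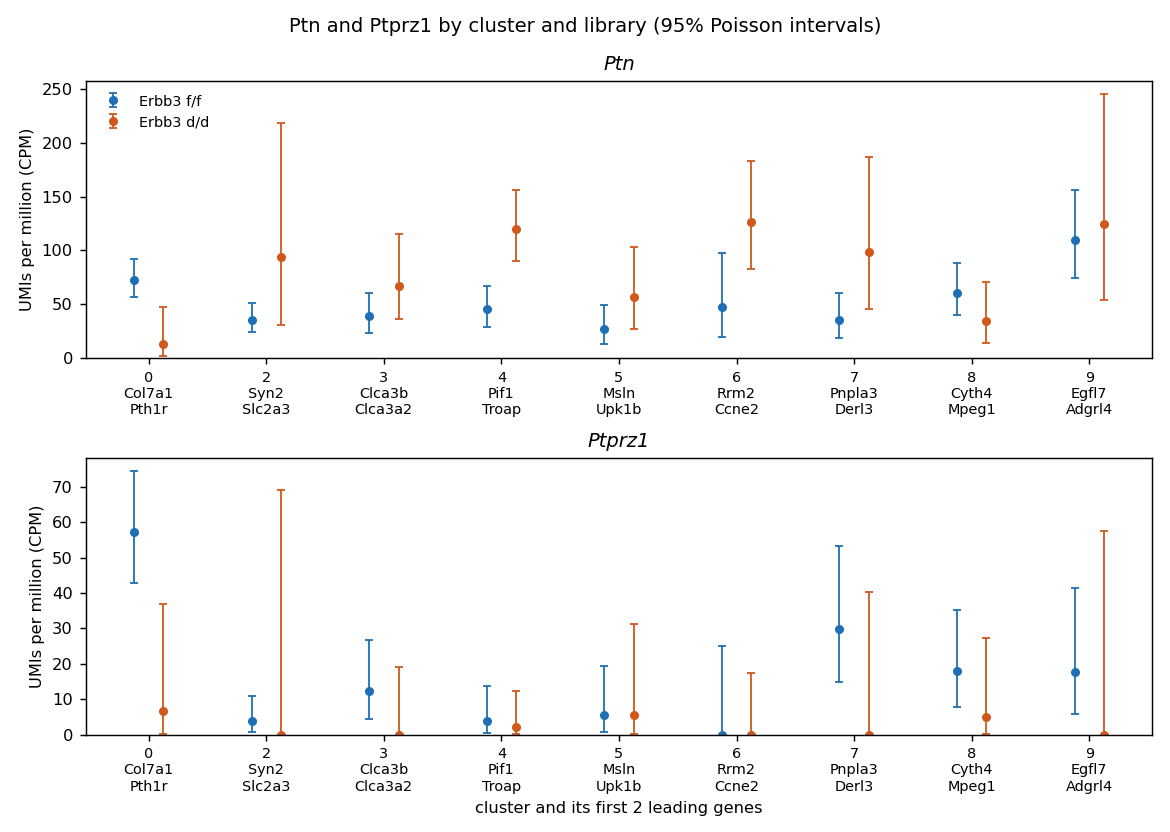
Ptn (top) and Ptprz1 (bottom) in CPM (vertical axis) in the 9 clusters with at least 50 cells of each library, named by number and leading genes, with f/f in blue, d/d in orange and 95% Poisson intervals. Ptn in d/d is above f/f in 7 clusters and far below it in cluster 0 (13.2 against 73.0 CPM), while Ptprz1 is highest in f/f cluster 0 at 57.1 CPM.

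RNA of other classes in the gates was measured beside these levels. In the epithelial gate the 12 stromal markers, all detected, summed to 301 CPM with f/f and 243 CPM with d/d, and the 11 muscle and pericyte markers to 186 and 380 CPM, with Actg2 and Ldb3 at 0 in f/f and Ldb3 at 0 in d/d. Smtn alone made up 128 and 317 CPM of the muscle sum, while Synpo2 went from 31.8 to 18.5 CPM. In the stromal gate the 19 epithelial markers summed to 457 and 666 CPM, with only Prss8 at 0, in d/d. Among epithelial cells without a single UMI of another class's markers (1071 f/f and 337 d/d) the Ptn log2 ratio was 1.75. Among such stromal cells (390 and 57) it was -1.25, with an interval that included 0.

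Mdk (ENSMUSG00000027239, chr2:91929805-91932297, minus strand) encodes midkine, the other ligand of the family. Of the epithelial and stromal gates, the stromal gate had the higher Mdk level in both libraries. Stromal cells gave 358 UMIs from f/f and 66 from d/d, 263 and 240 CPM, and epithelial cells 46 and 19 UMIs, 22.1 and 29.3 CPM. The stromal level was 11.9-fold the epithelial level in f/f and 8.21-fold in d/d. No difference between the libraries was detectable in either class. The log2 ratio was -0.13 (-0.53 to 0.25) in stroma and 0.40 (-0.45 to 1.20) in epithelium, intervals that leave room for a stromal difference of under 1 and an epithelial one of just over 1 on the log2 scale. After thinning to 500 UMIs, 10.4% of f/f and 7.76% of d/d stromal cells had a Mdk UMI, and the unthinned shares were 18.6% and 16.1%. No myeloid cell had one after thinning, of 72 and 26 cells, which allows a share of up to 4.99% and 13.2%.

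The wide stromal gap of Ptn was not seen for Mdk. In the Pth1r and Scube1 stromal cells, in which Ptn was 95.3 and 12.4 CPM, Mdk was 278 and 297 CPM, a log2 ratio of 0.10 (-0.59 to 0.73). In the Col6a4 and Adam12 cells Mdk was 317 and 249 CPM, a log2 ratio of -0.35 (-0.88 to 0.16). In cluster 0 it was 277 and 244 CPM. Among the clusters compared, only cluster 4, led by Pif1 and Troap, had a Mdk interval clear of 0. There Mdk was 50.8 and 22.2 CPM (27 and 10 UMIs), a log2 ratio of -1.20 (-2.41 to -0.10). Mdk UMIs also lay in clusters that did not reach a class line. In cluster 8, led by Cyth4 and Mpeg1, Mdk was 204 and 214 CPM (91 and 44 UMIs). Stromal markers gave 54.4% of the marker UMIs of cluster 8, and cells of the myeloid gate held 1 and 0 Mdk UMIs. Mdk was 138 and 142 CPM in cluster 7, where stromal markers gave 52.2%. It was 121 and 171 CPM in cluster 9, where endothelial markers gave 51.1%. These mixed clusters do not show that Mdk lay outside stromal cells.

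Sdc1 (ENSMUSG00000020592, chr12:8771323-8793715, plus strand) encodes syndecan 1, a transmembrane proteoglycan typical of epithelia that binds heparin-binding growth factors through heparan sulfate. It was higher in d/d in both classes. Epithelial cells gave 52 UMIs from f/f and 33 from d/d, 25.0 and 50.8 CPM, a log2 ratio of 1.02 (0.35 to 1.68). Stromal cells gave 85 and 34 UMIs, 62.3 and 124 CPM, a log2 ratio of 0.99 (0.37 to 1.58). Over all cells the ratio was 0.69, from 213 and 107 UMIs. Sdc1 was higher in stromal than in epithelial cells in both libraries, with log2 ratios of epithelium over stroma of -1.32 and -1.28.

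By cluster the Sdc1 counts were small. The log2 ratio lay between 0.77 and 1.93 in clusters 0, 2, 4, 6, 7 and 8, with an interval clear of 0 in cluster 2 only (0.35 to 3.26). In clusters 3, 5 and 9 the libraries were level, at -0.05, 0.06 and 0.02. In cycling epithelial cells Sdc1 gave 11 and 23 UMIs, a log2 ratio of 1.39 (0.29 to 2.57), and in the other epithelial cells 41 and 10 UMIs, 0.63 (-0.53 to 1.65). Epithelial cells outside the Lrp2 and Slc5a11 group gave 33 and 33 UMIs, 0.77 (0.03 to 1.51). With that group marked by 1 UMI in place of 2, those outside it gave 27 and 31 UMIs, 0.41 (-0.38 to 1.21), which was not a detectable difference. Stromal cells outside the Pth1r and Scube1 group gave 65.9 and 134 CPM, a log2 ratio of 1.02 (0.29 to 1.72). After thinning, 1.06% and 2.57% of epithelial and 2.93% and 5.90% of stromal cells had a Sdc1 UMI.

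Sdc4 (ENSMUSG00000017009, chr2:164424247-164443887, minus strand) encodes syndecan 4, a proteoglycan of focal adhesions. It was higher in the epithelial than in the stromal gate in both libraries and differed little between them. Epithelial cells gave 384 and 113 UMIs, 185 and 174 CPM, a log2 ratio of -0.09 (-0.40 to 0.22). Stromal cells gave 79 and 22 UMIs, 57.9 and 80.1 CPM, a log2 ratio of 0.47 (-0.29 to 1.16). The epithelial level was above the stromal level in f/f by 1.67 and in d/d by 1.12 on the log2 scale. Within the stroma, Col6a4 and Adam12 cells gave 18 and 17 UMIs, 41.0 and 98.5 CPM, a log2 ratio of 1.26 (0.22 to 2.30), while the stromal cells outside them gave 61 and 5 UMIs, -0.43 (-2.10 to 0.87).

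Ptprz1 (ENSMUSG00000068748, chr6:22875502-23052916, plus strand) encodes the chondroitin sulfate-bearing receptor phosphatase that pleiotrophin inactivates. It was nearly missing from the d/d library. Stromal cells gave 59 UMIs from f/f and 1 from d/d, 43.3 and 3.64 CPM, a log2 ratio of -3.57 (-8.90 to -1.04). Epithelial cells gave 28 and 1 UMIs, 13.5 and 1.54 CPM, a log2 ratio of -3.13 (-8.48 to -0.53). In cells of no gate it gave 29 and 2 UMIs, a log2 ratio of -2.47 (-5.58 to -0.49). Ptprz1 in d/d thus lay below f/f in all 3, and its stromal and epithelial ratios had the same sign, unlike those of Ptn. In epithelium 17 of the 28 f/f UMIs came from Lrp2 and Slc5a11 cells, which numbered 881 in f/f and 24 in d/d.

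Over all cells Ptprz1 gave 117 UMIs in 107 of 5503 f/f cells and 4 UMIs in 4 of 1830 d/d cells, 21.2 and 2.34 CPM. The level was 9.08-fold lower in d/d, a log2 ratio of -3.18 (-5.08 to -1.79). Within f/f it was higher in stroma than in epithelium, with a log2 ratio of epithelium over stroma of -1.68 (-2.39 to -1.01); with 1 UMI in each d/d class that order could not be read in d/d. After thinning, 2.37% of f/f stromal cells (1.65% to 3.30%) and 0.311% of d/d stromal cells (0.00786% to 1.72%) had a Ptprz1 UMI. No thinned endothelial cell had one, of 101 and 31, which allows a share of up to 3.59% and 11.2%. These are shares with a UMI, which say nothing of how many such cells express the gene. They leave no background to set the f/f stromal share against.

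The f/f Ptprz1 UMIs came mainly from 2 places. Cluster 0, the Col7a1 and Pth1r cluster, held 54 UMIs in 1155 f/f cells and 1 in 206 d/d cells, 57.1 and 6.60 CPM. Cluster 1, the Slc5a11 and Lrp2 cluster, held 24 UMIs in 956 f/f cells, 24.9 CPM, and had 10 d/d cells with none. Among epithelial cells outside the Lrp2 and Slc5a11 group Ptprz1 gave 11 and 1 UMIs, a log2 ratio of -2.69 (-8.11 to 0.10). With that group marked by 1 UMI in place of 2, the cells outside it gave 9 and 1 UMIs, -2.96 (-8.41 to -0.11). In the stroma outside the Pth1r and Scube1 group it gave 36 UMIs in f/f and none in d/d. By cluster, only cluster 0 had an interval clear of 0, at -3.11 (-8.44 to -0.57). In clusters 2, 3, 7 and 9 there were 3, 6, 11 and 5 UMIs from f/f and none from d/d, too few for a direction.

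Alk (ENSMUSG00000055471, chr17:71868972-72604627, minus strand) encodes the receptor tyrosine kinase proposed as a pleiotrophin and midkine receptor. No Alk UMI was found in any cell of either library. Over all cells a count of 0 allows up to 0.544 CPM in f/f and 1.75 CPM in d/d, taking 3 counts as the limit. Whether the probes could detect Alk was not given in the sources used here.

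Ncl (ENSMUSG00000026234, chr1:86344719-86359400, minus strand) encodes nucleolin. In stromal cells it gave 250 UMIs from f/f and 32 from d/d, 183 and 117 CPM, a log2 ratio of -0.65 (-1.23 to -0.12). In epithelial cells it gave 177 and 72 UMIs, 85.2 and 111 CPM, a log2 ratio of 0.38 (-0.04 to 0.78), which reaches 0. Over all cells the ratio was -0.09. In f/f Ncl was lower in epithelium than in stroma, with a log2 ratio of -1.11, and in d/d the classes were level at -0.07. Its stromal ratio was -0.76 (-1.51 to -0.08) outside the Pth1r and Scube1 group and -0.42 (-1.42 to 0.45) in it.

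**Figure D4:**
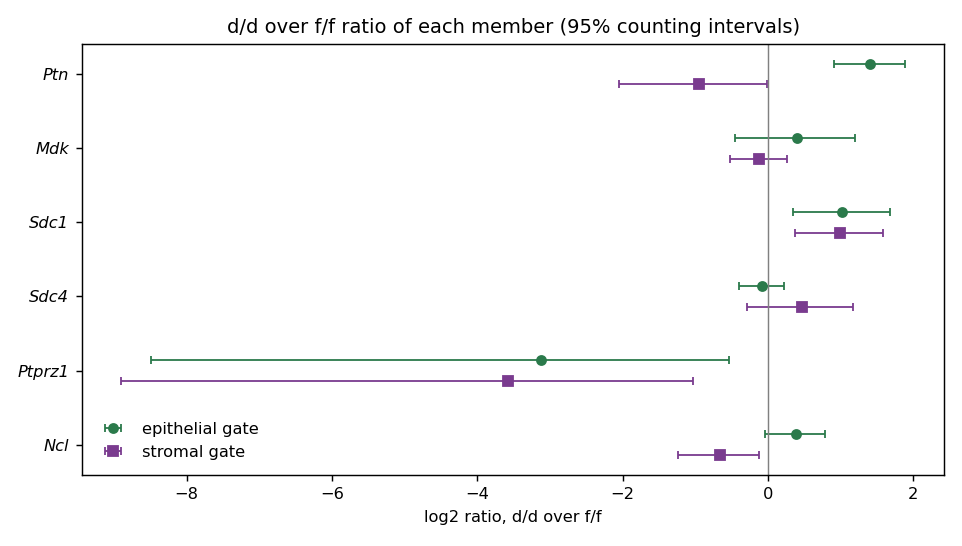
The d/d-to-f/f log2 ratio (horizontal axis) for the 6 detected members in the epithelial gate (circles) and the stromal gate (squares), with 95% counting intervals. Ptn lies at 1.40 and -0.95, Sdc1 near 1 in both gates, and Ptprz1 at -3.13 and -3.57 with wide intervals.

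The members were set beside all genes of the same sums, counting as higher or lower a log2 ratio of at least 1 in size for genes whose 2 libraries together gave at least 100 UMIs. In epithelial cells 5.08% of 6413 genes were higher and 4.82% lower in d/d by this rule. Ptn, Sdc4 and Ncl had enough UMIs there, and 1 of the 3, Ptn, was higher; 115 genes, Ptn among them, had a ratio at least as high. In stromal cells 1.05% of 4855 genes were higher and 2.88% lower, and none of the 5 members with enough UMIs passed either line, with Sdc1 at 0.99 and Ptn at -0.95 just inside. Over all cells 3.16% of 9740 genes were higher and 2.93% lower, and of the 6 members counted 1 was lower, Ptprz1. It passed the minimum through its f/f UMIs alone, so nothing is read from its count here or below. With a minimum of 20 UMIs in place of 100, 7.28% of 10099 genes were higher and 7.88% lower in epithelium, where 6 members counted: Ptn and Sdc1 were higher and Ptprz1 lower. In stroma 4.6% of 9861 genes were higher and 7.12% lower, and of 6 members Ptprz1 was lower. With a log2 line of 0.5 and 100 UMIs, 16% of genes were higher and 17.5% lower in epithelium, and 8.86% and 17% in stroma. The contrast that chose the genes is the same one, so nothing is read from the Ptn count. The median log2 ratio of all genes was -0.03 in epithelium and -0.09 in stroma.

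Of the 4279 genes with at least 100 UMIs in both classes, 3 were at least 1 higher in epithelium and at least 1 lower in stroma on the log2 scale, and none the other way round. They were Tead2, a transcription factor of the Hippo pathway (1.68 and -1.11), Homer3, a scaffold protein (1.16 and -1.03), and Ccdc141 (1.01 and -1.22). Ptn itself, at -0.95 in stroma, fell just short of that rule.

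The 6 lists of genes around the pathway, with 94 genes in all, were then described by the same rule. Of 18 other described receptors and of ligands of Alk, 5 had enough UMIs in epithelium and 7 in stroma, and none passed a log2 ratio of 1 in either class, with a median of -0.15 in both. The widest difference in epithelium was in Ptprs, a receptor phosphatase that binds heparan and chondroitin sulfate, at 0.85 (0.60 to 1.10) from 369 and 208 UMIs. In stroma Ptprs was at -0.49 (-0.81 to -0.18) from 670 and 96 UMIs, so it too was higher in d/d epithelium and lower in d/d stroma. Vcan, the matrix chondroitin sulfate proteoglycan versican, was at -0.65 (-1.10 to -0.23) in stroma, and over all cells at -1.27 from 573 and 74 UMIs. Lrp1, an endocytic receptor for midkine, was at 0.04 (-0.35 to 0.42) in stroma.

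Genes that make the sulfated chains differed in both directions. Of 19 genes of heparan sulfate synthesis and editing, 6 had enough UMIs in epithelium and 5 in stroma, none passed the line, and 3 were above 0 in each class, with medians of 0.06 and 0.25. Sulf2, an extracellular sulfatase that edits heparan sulfate, came closest in epithelium at 0.98 (0.39 to 1.56) from 68 and 42 UMIs, and in stroma it was at 0.25 (-0.45 to 0.91). The chain polymerase subunit Ext1 was at 0.63 (0.13 to 1.11) and the sulfotransferase Hs6st1 at -0.53 (-0.92 to -0.17) in epithelium. Of 15 genes of chondroitin sulfate synthesis only Chpf2 and Chst11 had enough UMIs in epithelium and Chpf2 in stroma; Chpf2, a subunit of chondroitin polymerase, was at -0.81 (-1.26 to -0.38) and -0.60 (-1.16 to -0.08). Chst11, a chondroitin sulfotransferase, was at 0.61 (0.06 to 1.15). With a minimum of 20 UMIs, 3 of 8 counted chondroitin genes were lower in epithelium, with a median of -0.88, where 7.88% of all genes were lower. The epithelial gate summed to 2077652 UMIs for f/f against 649419 for d/d. A gene near that minimum and lower in d/d can therefore pass it mainly through its f/f UMIs. Nothing is read from this count, and with the minimum of 100, 0 of the 2 counted genes were lower by the rule. Of 7 genes of syndecan shedding and trafficking, 4 and 2 had enough UMIs and none passed the line, with medians of -0.02 and -0.46. Mmp7, the matrilysin that sheds syndecan 1 in epithelia, was at 1.66 over all cells from 60 and 59 UMIs.

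The signalling genes below the receptors differed little between the libraries. Of 15, 14 had enough UMIs in epithelium and 13 in stroma, none passed the line, 8 and 7 were above 0, and the medians were 0.06 and 0.07. They include Ctnnb1 (beta-catenin), a described substrate of Ptprz1, at -0.41 (-0.72 to -0.11) in epithelium and 0.25 (-0.23 to 0.71) in stroma. Irs1, an adaptor of receptor kinases, was at 0.76 (0.51 to 1.01) in epithelium and -0.05 (-0.59 to 0.46) in stroma.

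The nucleolar partners of nucleolin lay mostly above 0 in epithelium and mostly below 0 in stroma. Of 20 genes, 14 had enough UMIs in epithelium and all 14 were above 0, with 4 past the line and a median of 0.51, where 5.08% of all genes passed the higher line and 47.7% were above 0. Cycling cells were 374 of 701 d/d and 356 of 2073 f/f epithelial cells, and their part in this was not tested. These 4 were Gar1 at 1.23, Nop56 at 1.20, Nolc1 at 1.06 and Nop58 at 1.05, all proteins of small nucleolar RNA particles or their assembly. In stroma 17 had enough UMIs, 2 were above 0 (42.5% of all genes were), and the median was -0.40, with 1 past the line: Polr1a, the large subunit of RNA polymerase I, at -1.20 (-2.37 to -0.22). With TMM scaling 13 of the 14 epithelial genes were above 0, and Ubtf, at 0.00 in the reported scaling, was the gene closest to 0. Over all cells 10 of 18 were above 0 and none passed the line. The list and its direction were chosen with Ncl in view and are not independent of it.

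**Figure D5:**
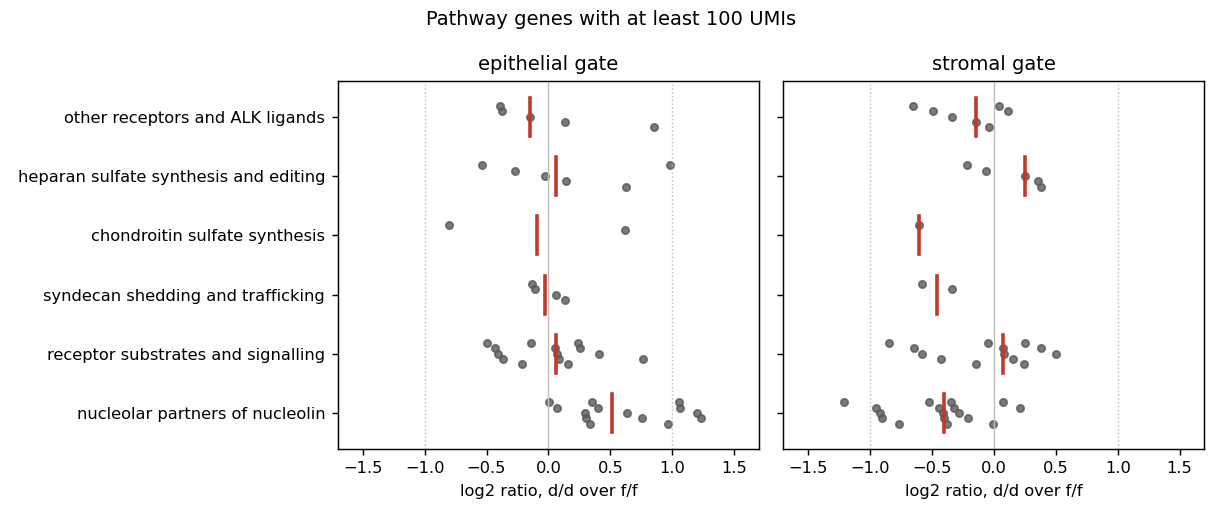
The d/d-to-f/f log2 ratio (horizontal axis) for each gene with at least 100 UMIs in the 6 pathway lists, in the epithelial gate (left) and the stromal gate (right), with a red line at each list's median. The nucleolar genes lie to the right of 0 in epithelium (median 0.51) and mostly to the left in stroma (median -0.40), and the other lists are centred between -0.60 and 0.25.

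Genes with the most similar pattern were named by the Pearson correlation of log2(CPM + 10). Over the 4 class and library sums the measure separated little, since 99 of 8282 genes exceeded 0.95 for Ptn and 896 for Mdk. The top 5 were Hyal2, Eif3m, Ranbp3, Brd9 and Mvk for Ptn, Timp2, Wtip, Med13l, Cacna1g and Clmp for Mdk, Ccni, Safb2, Snx4, Akap1 and Slc15a4 for Sdc1, and Dalrd3, Crb3, Zmynd8, Eps8l2 and Dpp4 for Sdc4. Over 18 sums (9 clusters in each library, which share their library and its depth) the highest was Srpk1 for Ptn (0.80), Rab31 for Mdk (0.94), Herpud1 for Sdc1 (0.84), Fsd1l for Sdc4 (0.93) and Vgll3 for Ptprz1 (0.86). The clusters were made from these same cells, so the correlations are descriptions.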

How the data were processed

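Each library's matrix held UMI counts per gene and cell barcode, as deposited by the authors, with 19070 genes. Per the file headers, the software was Cell Ranger 9.0.0; mm10 and GRCm39 are both named in the submitters' processing notes. Barcodes with fewer than 200 genes or over 10% mitochondrial UMIs were left out, and no doublet caller was run. The gates left out cells whose markers were split between classes beyond the 2/3 share, but not all mixed cells: cells free of other marker UMIs numbered 1071 (f/f) and 337 (d/d) in the epithelial gate and 390 and 57 in the stromal gate. Of 100 markers, 99 were in the matrices (Cx3cr1 was not). UMIs were summed by library and gate, given as CPM of the class total with exact Poisson intervals, and compared as log2 ratios with exact conditional binomial intervals, all at 95%. Shares of cells have Clopper-Pearson intervals. A class with 0 counts was replaced by 3 counts and the ratio given as a bound. No test was made between genotypes, since each has 1 library. Levels of different genes were not compared, because no scale per length or probe was available.

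Clusters came from scanpy 1.11.5 (2000 variable genes, 30 principal components, 15 neighbours, Leiden resolution 1); Python 3.11.15 and edgeR 4.0.16 were used, edgeR only for TMM scaling factors. On counts simulated with Poisson error only, the intervals covered the true ratio for 95.6% of 6389 epithelial and 95.5% of 4811 stromal genes. The intervals assume that same error, so this checks the calculation and not the spread between cells or libraries. Gene positions are from GENCODE on GRCm38, matched by gene ID, and promoters from RefSeq on GRCm38.p6, which held 6 of the 7 members. The members and lists were chosen with earlier results of these data known. Beside the members, up to 4 genes per list and class with a log2 ratio of at least 1 in size were named, the 5 genes most like each of Ptn, Mdk, Sdc1 and Sdc4, and the genes with opposite directions in the 2 classes. Other list genes named (Ptprs, Vcan in stroma, Lrp1, Sulf2, Chpf2, Chst11, Ext1, Hs6st1, Ctnnb1, Irs1 and Ubtf), and the genes most like a member over clusters, were chosen after their values were seen. Alternatives changed the filters, the gates, the scaling, the depth per cell and the minimum count.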

Additional observations from a re-analysis of the deposited data

Results flagged for a closer look

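Ptn differed between the libraries in opposite directions in the 2 classes, with a d/d-to-f/f log2 ratio of 1.40 in epithelial cells and -0.95 in stromal cells. It is given here because the 1 library of each genotype moved one way in one class and the other way in the other. The difference between the classes was not tested, and this same pattern was the reason these genes were chosen.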

How the results depend on the processing

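The log2 ratios of Ptn, Mdk, Sdc1, Sdc4, Ptprz1 and Ncl were recomputed under 12 alternatives. No paired analysis was possible because each genotype has 1 library, and for the same reason no library could be left out. Ptn stayed above 0 in epithelium in all 12 (1.17 to 1.75), with an interval clear of 0 in all 11 that give one, and below 0 in stroma in all 12 (-2.47 to -0.27), clear of 0 in 5 of 11. The stromal Ptn ratio was -2.47 with classes taken from clusters and -2.25 with gate and cluster both met, an alternative chosen after seeing the data; it was -0.30 with a gate share of 0.5 and -0.27 with cells thinned to 500 UMIs. In cells without a marker UMI of another class Sdc1 was at 1.75 in epithelium and 1.67 in stroma, and stromal Ptprz1 at -0.78. Ptprz1 stayed below 0 in all (-3.70 to -1.02 in epithelium, -3.61 to -0.78 in stroma), with d/d at 0 UMIs in some, where the ratio is a bound. The ratio of stromal Ptprz1 outside the Pth1r and Scube1 cells was at most -1.45, and at most -0.74 with the group marked by 1 UMI.

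Shares of cells with a UMI moved with thinning, as differences d/d minus f/f in percentage points. Thinned to 1000 UMIs in place of 500, they were 9.78 for epithelial Ptn (3.68 as reported) and -3.83 for stromal Ptn (-0.303). They were 3.50 for epithelial Sdc1, -3.66 for stromal Ptprz1 (-2.06) and -7.40 for stromal Ncl. Thinning to 1000 kept only 731 f/f and 214 d/d epithelial cells, and 382 and 66 stromal cells. In d/d stroma 3 of the 66 then had a Ptn UMI (0.947% to 12.7%), and 0 had a Ptprz1 UMI. The f/f stromal Ptn interval, 5.80% to 11.6%, lay within the d/d interval. Without thinning, stromal Ptn was at -2.22 and stromal Ptprz1 at -3.49. The 6 pathway lists, in the order described, counted 5, 6, 2, 4, 14 and 14 genes in epithelium. In stroma they counted 7, 5, 1, 2, 13 and 17. Together 4 were higher and 0 lower in epithelium (all genes: 5.08% and 4.82%), and 0 and 1 in stroma (1.05% and 2.88%). A minimum of 20 UMIs counted 12, 15, 8, 6, 15 and 18 in epithelium. In stroma it counted 12, 13, 10, 5, 15 and 18. Then 6 were higher and 4 lower in epithelium (7.28% and 7.88%), and 3 and 6 in stroma (4.6% and 7.12%). Genes near that minimum and lower in d/d can pass it mainly through their f/f UMIs, so nothing is read from these lower counts. With a log2 line of 0.5, 12 were higher and 2 lower in epithelium (16% and 17.5%), and 1 and 12 in stroma (8.86% and 17%). The nucleolar list gave 7 of those 12 higher and 6 of those 12 lower. The cause was not tested for any of these. Epithelial Mdk was at -0.19 with at least 4 marker UMIs (0.40 as reported), and epithelial Sdc4 at 0.02 with that gate and 0.01 with classes from clusters (-0.09 as reported), all with intervals that include 0; the other 10 of these ratios kept their sign under all 12 alternatives. Depth limits stromal Ptn, with 10 d/d UMIs, and Ptprz1, with 1 d/d UMI in each class.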
